A study of Mus musculus with 8 samples.

Results

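The genes described here are 10 serotonin receptor genes of the mouse, *Htr1a*, *Htr1b*, *Htr1f*, *Htr2a*, *Htr2c*, *Htr3a*, *Htr4*, *Htr5a*, *Htr6* and *Htr7*. They were chosen by name as receptors for serotonin, with no threshold on their values, and are 10 of the 50686 genes in the deposited table of read counts. The table held RNA-seq counts from the snap-frozen ventral hippocampus of 8 male C57BL/6J mice aged 8 weeks, with 1 mouse per library. The mice were killed 3 h after an injection of vehicle (libraries 1 to 4, n = 4) or of 3 mg/kg corticosterone (libraries 5 to 8, n = 4), the main glucocorticoid of rodents. The comparison asked which receptor genes were present at the RNA level in this tissue and whether their level differed 3 h after the hormone.

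Serotonin is released in the hippocampus by axons whose cell bodies lie in the raphe nuclei, so the hippocampus itself makes the receptors while tryptophan hydroxylase, which commits a cell to serotonin synthesis, is made mainly elsewhere. The receptors fall into groups by what they couple to. *Htr1* and *Htr5* receptors couple to Gi/o proteins, which lower cyclic AMP and open potassium channels; *Htr2* receptors couple to Gq and phospholipase C; *Htr4*, *Htr6* and *Htr7* receptors couple to Gs and raise cyclic AMP; and *Htr3* genes encode subunits of a cation channel. Corticosterone acts through the glucocorticoid and mineralocorticoid receptors, which are transcription factors, and effects of corticosteroids on serotonin responses of the hippocampus are a long-standing subject of stress research.

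The libraries held between 17492159 and 19931987 reads on genes. *Fkbp5*, a chaperone gene induced through the glucocorticoid receptor, was higher after corticosterone (log2 fold change 0.76, SE 0.10, edgeR adjusted p = 0.0481) and was the 1 gene of the 16018 tested that passed an adjusted p of 0.05. Library corticosterone 5 stood apart from the rest of its group, and without it 1651 genes passed. Levels are given as CPM, the reads of a gene scaled to a common library size. The slope of log2 CPM on the GC content of transcripts was 0.06, 0.14, 0.18 and -0.08 log2 units per 10 percentage points in vehicle 1 to 4, and 0.20, -0.18, -0.13 and -0.18 in corticosterone 5 to 8. The libraries also differed in the summed level of 8 thalamus marker genes. This was 155 to 199 CPM in vehicle 1 and 2 and corticosterone 6 and 7 and 107 to 117 CPM in the other 4. Of the 8 markers, 5 separated these sets of libraries, *Tcf7l2*, *Prkcd*, *Calb2*, *Tnnt1* and *Ramp3*, while *Rorb*, *Lef1* and *Slc17a6* did not. *Calb2* is also among the interneuron markers used here. Markers of dentate, CA1 and interneuron cells were present in every library. Examples are *Prox1*, which dentate cells share with *Vip* interneurons, with at least 1286 reads, and the GABA synthesis gene *Gad1* with at least 6615 reads. The CA1 markers summed to 563 to 769 CPM after vehicle and 569 to 801 CPM after corticosterone. Since whole tissue was sequenced, fewer cells of a type and less RNA per cell cannot be told apart.

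All 10 genes passed the filter on low counts. None passed an adjusted p of 0.05 in the quasi-likelihood test of edgeR, and 0.00624% of all genes tested did. At an unadjusted p under 0.05 there were 2 genes, *Htr2a* on the higher side and *Htr6* on the lower side, beside 9.03% of all genes tested. *Htr2a* was the 1 gene of the 10 whose values did not overlap between the groups, beside 3.66% of all genes. DESeq2 called 1 of the 10, *Htr2a* (adjusted p = 0.0489), beside 0.374% of the 16826 genes to which it gave an adjusted p. The log2 fold change was positive for 7 genes and negative for 3, with a median of 0.10, and over all genes it was positive for 50.7% with a median of 0.00. The p values set the difference between the groups against the spread between mice, which edgeR estimates partly from all genes.

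**Figure D1:**
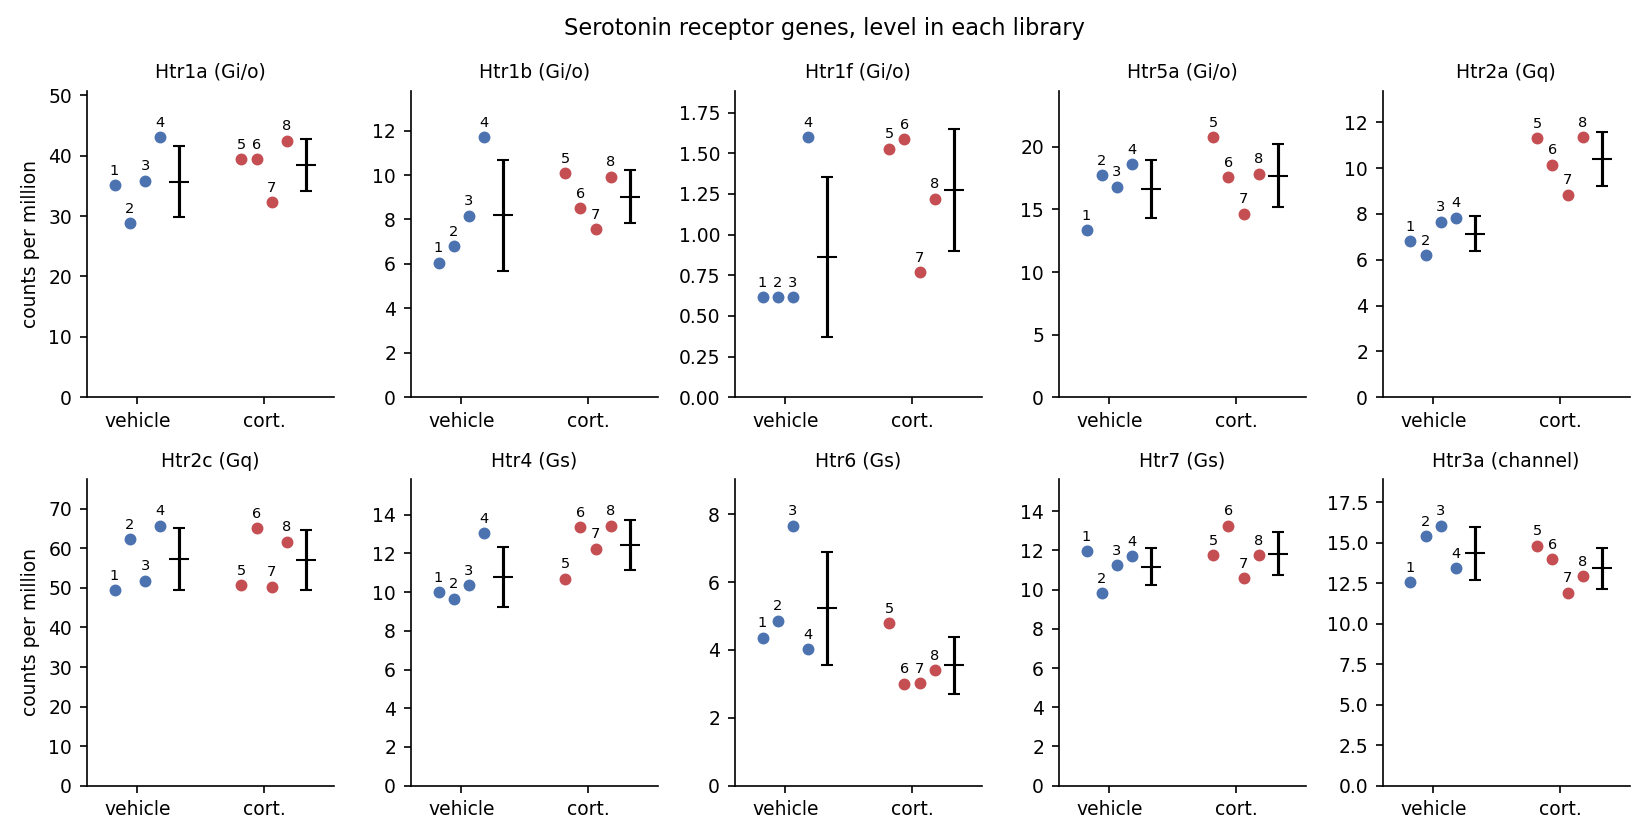
Level of each of the 10 serotonin receptor genes in CPM (vertical axis, from 0) in the 4 vehicle and 4 corticosterone (cort.) libraries. Points are libraries with their numbers, and the black bars are the mean ± SD. *Htr2a* is the one panel in which all 4 corticosterone libraries (8.83 to 11.3) lie above all 4 vehicle libraries (6.19 to 7.84).

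*Htr2a* encodes the Gq-coupled receptor that is the main target of classic hallucinogens and of several antipsychotics. It lies at chr14:74640840-74709494 on the plus strand (GRCm38) and its annotated transcript has 3 exons. Its level was 6.82, 6.19, 7.66 and 7.84 CPM in vehicle 1 to 4 and 11.3, 10.1, 8.83 and 11.3 CPM in corticosterone 5 to 8. The lowest corticosterone library, number 7, was above the highest vehicle library, number 4. The mean was 7.13 ± 0.766 CPM (SD, n = 4) after vehicle and 10.4 ± 1.19 CPM (SD, n = 4) after corticosterone. The fold change was 1.46 with a 95% interval of 1.21 to 1.77 (log2 0.55, SE 0.13). With edgeR the unadjusted p was 0.000859, which ranked 53rd among the 16018 genes, and the adjusted p was 0.250. An exact two-sided permutation test over the 70 assignments of 4 against 4 gave p = 0.0286, the smallest that this design allows.

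The difference in *Htr2a* had the same direction in each of 18 alternative analyses, with log2 fold changes between 0.45 and 0.62. These refit the same libraries or parts of them. As the groups did not overlap, leaving out libraries could not have turned the direction. The unadjusted p of *Htr2a* stayed at or under 0.00520, and its adjusted p ranged from 0.0330 to 0.618. The adjusted p was under 0.05 with DESeq2 and without corticosterone 5 (0.0330, log2 fold change 0.50). It was 0.0596 without vehicle 1 and corticosterone 5. Of all genes, 1651 of 16181 passed the adjusted threshold without corticosterone 5, and 1103 of 16026 without vehicle 1 and corticosterone 5. Without corticosterone 5 the unadjusted p of *Htr2a* from edgeR was 0.00187, larger than the 0.000859 with all libraries. Once each library's dependence on GC content and length was taken out, the log2 fold change was 0.45 (adjusted p = 0.261) and the groups overlapped. The gene was counted on 121 to 223 reads per library, so counting error alone was 8.48% of the level at the mean depth of a vehicle library, beside an observed coefficient of variation of 10.8%.

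A promoter window from RefSeq, from 250 bases before to 50 bases after the start of transcription, was at hand for 8 of the 10 genes (not *Htr3a* and *Htr4*) and for *Htr1d*, *Htr2b* and *Htr3b*. Because corticosterone receptors bind DNA, the windows were searched on both strands for the glucocorticoid response element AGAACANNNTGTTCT, for its half-site AGAACA, and for the GC box GGGCGG. The full element was in none of the 13 windows of these 11 genes and in 0.00913% of all 32851 windows of the same length. At that rarity none in 13 windows was the likely outcome, and sites outside the windows were not searched. Its absence therefore does not tell whether the receptors bind near these genes. The half-site was in 19.0% of all windows and in 3 of the 13, those of *Htr2a*, *Htr2b* and *Htr3b*, the last 2 of which are genes with hardly any reads here. In *Htr2a* it begins 168 bases before the RefSeq start of transcription, which lies downstream of the first annotated base of the gene. The GC box was in 35.7% of all windows and in 6 of the 13, those of *Htr1a*, *Htr1d* (both its windows), *Htr1f*, *Htr2a* and *Htr6* (in 1 of its 2 windows). The stretch of the *Htr2a* promoter up to the first annotated base of the gene (GRCm38, chr14:74640624-74640839, plus strand) is shown because *Htr2a* was the one gene whose groups did not overlap. It is 51.4% GC, and capitals mark the half-site, read on the opposite strand, and the GC box, also on the opposite strand:
*Htr2a* promoter: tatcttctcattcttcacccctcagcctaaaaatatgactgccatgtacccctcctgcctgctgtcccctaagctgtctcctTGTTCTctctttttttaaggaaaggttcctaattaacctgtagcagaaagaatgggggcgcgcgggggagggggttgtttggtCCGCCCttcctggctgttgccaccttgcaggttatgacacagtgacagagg

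*Htr2c*, the other Gq-coupled gene of the set, encodes a receptor whose RNA is edited and which is abundant in the choroid plexus. It lies at chrX:146962513-147197277 on the plus strand and had the most reads of the 10 genes, 8748 in all. Its level was 49.5, 62.3, 51.8 and 65.7 CPM in vehicle 1 to 4 and 50.7, 65.1, 50.3 and 61.7 CPM in corticosterone 5 to 8. In each group the libraries formed a lower pair near 50 CPM and a higher pair above 60 CPM, and the groups overlapped almost completely. Between the groups the log2 fold change was -0.01, with a 95% interval of -0.25 to 0.23 (edgeR adjusted p = 0.978), and no difference was detected. With single libraries left out it lay between -0.079 and 0.058, and it was positive without vehicle 2, vehicle 4, corticosterone 5 or corticosterone 7. It was -0.14 with 1 surrogate variable and -0.11 with the GC and length trend removed.

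Choroid plexus RNA varied between the libraries, as shown by *Ttr*, the transthyretin gene that is its defining marker. *Ttr* was at 43.4, 20.2, 6.74 and 3.35 CPM in vehicle 1 to 4 and at 44.2, 37.5, 11.2 and 23.9 CPM in corticosterone 5 to 8. *Htr2c* was highest in vehicle 4, where *Ttr* was lowest, and near its lowest in vehicle 1 and corticosterone 5, where *Ttr* was highest. In other libraries the levels went together, with both lowest of their group in corticosterone 7 and both high in corticosterone 6. The part of choroid plexus RNA in the level of *Htr2c* was not tested. Of the 12 choroid plexus markers 9 were tested and 8 of these had a positive log2 fold change, beside 50.7% of all genes tested. An unadjusted p under 0.05 was met by 2 of them, beside 9.03% of all genes tested. These were the chloride channel gene *Clic6* (log2 fold change 1.16, adjusted p = 0.443) and the transcription factor gene *Otx2* (1.04, adjusted p = 0.545). None passed the adjusted threshold. The median log2 fold change of the markers was 0.66, and *Ttr* had means of 18.4 ± 18.2 CPM after vehicle and 29.2 ± 14.7 CPM after corticosterone (SD, n = 4 each). Their summed level, 171 to 326 CPM after vehicle and 208 to 266 CPM after corticosterone, was mostly *Enpp2*, which oligodendrocytes also express (log2 fold change 0.01).

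**Figure D2:**
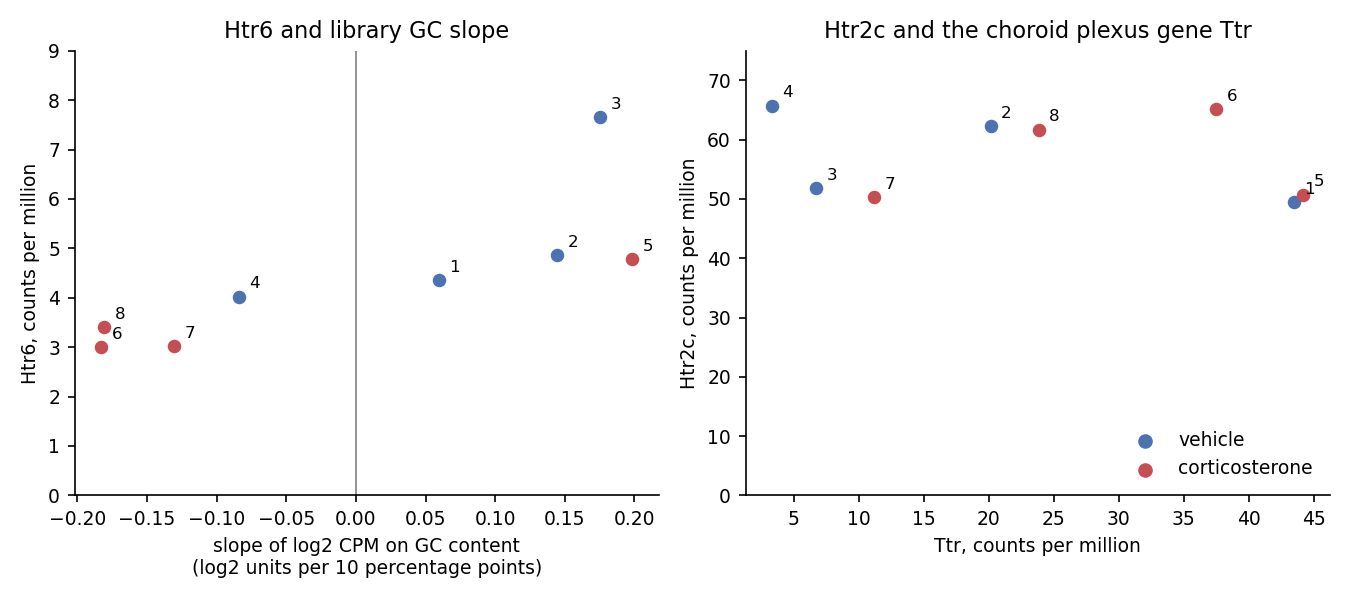
Left, *Htr6* in CPM against the slope of log2 CPM on transcript GC content in each library. Right, *Htr2c* against *Ttr*, both in CPM. Points are libraries with their numbers, blue for vehicle and red for corticosterone. The 4 libraries with a negative GC slope have the 4 lowest *Htr6* values (3.00 to 4.02), and *Htr2c* is highest (65.7) where *Ttr* is lowest (3.35).

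Among the Gs-coupled genes, *Htr6* was lower after corticosterone in the unadjusted test of edgeR but not after adjustment. It encodes a receptor found mostly on primary cilia of neurons and lies at chr4:139061108-139075570 on the minus strand. Its level was 4.36, 4.86, 7.66 and 4.02 CPM in vehicle 1 to 4 and 4.78, 3.00, 3.02 and 3.41 CPM in corticosterone 5 to 8. The groups overlapped through corticosterone 5, which lay above vehicle 1 and 4, and vehicle 3 was well above all the others. The mean was 5.22 ± 1.66 CPM after vehicle and 3.55 ± 0.842 CPM after corticosterone (SD, n = 4 each). The log2 fold change was -0.55 (SE 0.23, 95% interval -1.04 to -0.06), with an unadjusted p of 0.0293 and an adjusted p of 0.532 from edgeR. The exact permutation test gave p = 0.0857.

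The value for *Htr6* moved with single libraries and with the removal of the joint trend with GC content and length. Without vehicle 3 the log2 fold change was -0.31 (adjusted p = 0.898), and without corticosterone 5 it was -0.73 with an adjusted p of 0.04999 and no overlap between the groups. In that analysis 1651 of 16181 genes passed the adjusted threshold and 24.3% of all genes did not overlap. The transcripts of *Htr6* were the most GC-rich of the 10 genes, at 63.1% against 39.4% to 53.4% for the others. The 4 libraries with a positive GC slope had 4.36 to 7.66 CPM of *Htr6* and the 4 with a negative slope had 3.00 to 4.02 CPM. The slope also went with treatment, being negative in 3 of 4 corticosterone libraries and 1 of 4 vehicle libraries, so the effects of slope and treatment cannot be fully told apart. With the GC and length trend removed, the log2 fold change was -0.32 (adjusted p = 0.572), and with 1 surrogate variable it was -0.19 (adjusted p = 0.971), and in neither was the unadjusted p under 0.05.

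The promoter of *Htr6* is printed as the other gene whose unadjusted p was under 0.05. The stretch (GRCm38, chr4:139075571-139075820, minus strand) is 70.8% GC. Of the 2 windows of 300 bases for this gene, the one that holds it is 71.0% GC and the other is 57.0% GC with no GC box, beside a median of 52.7% over all windows. Capitals mark the 3 GC boxes, of which one is read on the opposite strand and the other two adjoin with a shared base:
*Htr6* promoter: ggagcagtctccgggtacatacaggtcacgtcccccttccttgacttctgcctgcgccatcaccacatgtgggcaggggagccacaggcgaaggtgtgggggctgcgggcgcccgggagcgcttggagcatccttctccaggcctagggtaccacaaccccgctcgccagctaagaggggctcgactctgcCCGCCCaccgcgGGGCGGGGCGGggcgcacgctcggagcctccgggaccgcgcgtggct

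*Htr4*, whose receptor raises the excitability of pyramidal cells, was at 9.9995, 9.67, 10.4 and 13.0 CPM in vehicle 1 to 4. It was at 10.7, 13.4, 12.2 and 13.4 CPM in corticosterone 5 to 8. Vehicle 4 lay among the corticosterone libraries, and the other 3 vehicle libraries lay below all of them. The difference was 0.21 on the log2 scale with a 95% interval of -0.06 to 0.48 (edgeR adjusted p = 0.580). Without vehicle 4 the unadjusted p was 0.0245 and the groups no longer overlapped, while 15.3% of all genes had an unadjusted p under 0.05 in that analysis. With 1 surrogate variable the log2 fold change of *Htr4* was 0.033, and with the GC and length trend removed it was 0.13. *Htr7*, at chr19:35958734-36057507 on the minus strand, encodes a Gs-coupled receptor that also takes part in circadian timing. Its level was 9.82 to 11.9 CPM after vehicle and 10.6 to 13.3 CPM after corticosterone. The log2 fold change of *Htr7* was 0.08 (95% interval -0.15 to 0.32, adjusted p = 0.777), and it was 0.025 without corticosterone 6, 0.026 without vehicle 2 and 0.13 without corticosterone 7.

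*Htr1a*, the Gi/o-coupled receptor that hyperpolarizes hippocampal pyramidal cells through potassium channels, is encoded by a single exon at chr13:105443639-105448122 on the plus strand. Its level was 35.1, 28.8, 35.9 and 43.0 CPM in vehicle 1 to 4 and 39.4, 39.4, 32.3 and 42.5 CPM in corticosterone 5 to 8. The groups overlapped, with the highest and the lowest value both in vehicle libraries. It differed by a log2 fold change of 0.11 with a 95% interval of -0.15 to 0.36 (edgeR adjusted p = 0.734), which spans folds of 0.900 to 1.29. The log2 fold change was 0.016 without vehicle 2, 0.051 without corticosterone 8, 0.18 without corticosterone 7 and 0.20 without vehicle 4.

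*Htr1b*, the receptor that restrains transmitter release from axon terminals, lies at chr9:81628291-81633828 on the minus strand. It was at 6.05, 6.80, 8.17 and 11.7 CPM in vehicle 1 to 4 and at 10.1, 8.50, 7.57 and 9.92 CPM in corticosterone 5 to 8. The corticosterone values all lay within the range of the vehicle values. Its log2 fold change was 0.14 (SE 0.19, adjusted p = 0.776), and it was 0.019 without vehicle 1, 0.063 without vehicle 2, 0.084 without corticosterone 5, 0.090 without corticosterone 8, 0.22 without corticosterone 7 and 0.36 without vehicle 4. The exons of *Htr1b* share 852 bases with *D430036J16Rik* on the opposite strand, which itself had 25 to 55 reads per library, and the strand setting of the counting was not given in the sources used here, so a part of its reads cannot be assigned.

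*Htr5a*, a Gi/o-coupled receptor gene at chr5:27842149-27855088 on the plus strand, had 13.3, 17.7, 16.8 and 18.6 CPM in vehicle 1 to 4 and 20.8, 17.6, 14.7 and 17.9 CPM in corticosterone 5 to 8. The groups overlapped, and the log2 fold change of 0.09 (adjusted p = 0.787) was smaller than its SE of 0.13. It was -0.0032 without vehicle 1, 0.0062 without corticosterone 5, 0.15 without vehicle 4 and 0.17 without corticosterone 7. *Htr1f*, at chr16:64924729-65105854 on the minus strand, encodes a Gi/o-coupled receptor that is the target of some migraine drugs. It was the scarcest member of the set, with 12 to 31 reads per library. Its level was 0.615, 0.614, 0.613 and 1.60 CPM in vehicle 1 to 4 and 1.53, 1.59, 0.768 and 1.22 CPM in corticosterone 5 to 8. Vehicle 4 had the highest value and the other 3 vehicle libraries the lowest ones. The log2 fold change of 0.57 was the largest in size of the 10 genes, but its SE was 0.37 and its 95% interval ran from -0.22 to 1.36 (adjusted p = 0.593). Without vehicle 4 it was 1.04 and the groups no longer overlapped, as for 9.16% of all genes in that analysis.

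*Htr3a* encodes a subunit of the serotonin-gated cation channel, which in the hippocampus is found in interneurons, and lies at chr9:48899213-48911099 on the minus strand. Its level was 12.6, 15.4, 16.04 and 13.4 CPM in vehicle 1 to 4 and 14.8, 13.99, 11.9 and 12.9 CPM in corticosterone 5 to 8. The groups overlapped, and the log2 fold change was -0.10 with a 95% interval of -0.34 to 0.15 (adjusted p = 0.740). It was -0.16 without vehicle 1, -0.15 without corticosterone 5, -0.062 without vehicle 2, -0.045 without corticosterone 7 and -0.043 without vehicle 3. Of the 11 markers of *Vip*, *Cck* and *Lamp5* interneurons, all tested, 1 had an unadjusted p under 0.05, beside 9.03% of all genes tested. This was the neuropeptide gene *Cck* (log2 fold change -0.29, adjusted p = 0.532), followed by *Lamp5* (0.16, adjusted p = 0.545). None of 7 general interneuron markers had an unadjusted p under 0.05. Of these, *Slc32a1* (-0.23, adjusted p = 0.590) and *Sst* (-0.24, adjusted p = 0.601) had the smallest p values.

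**Figure D3:**
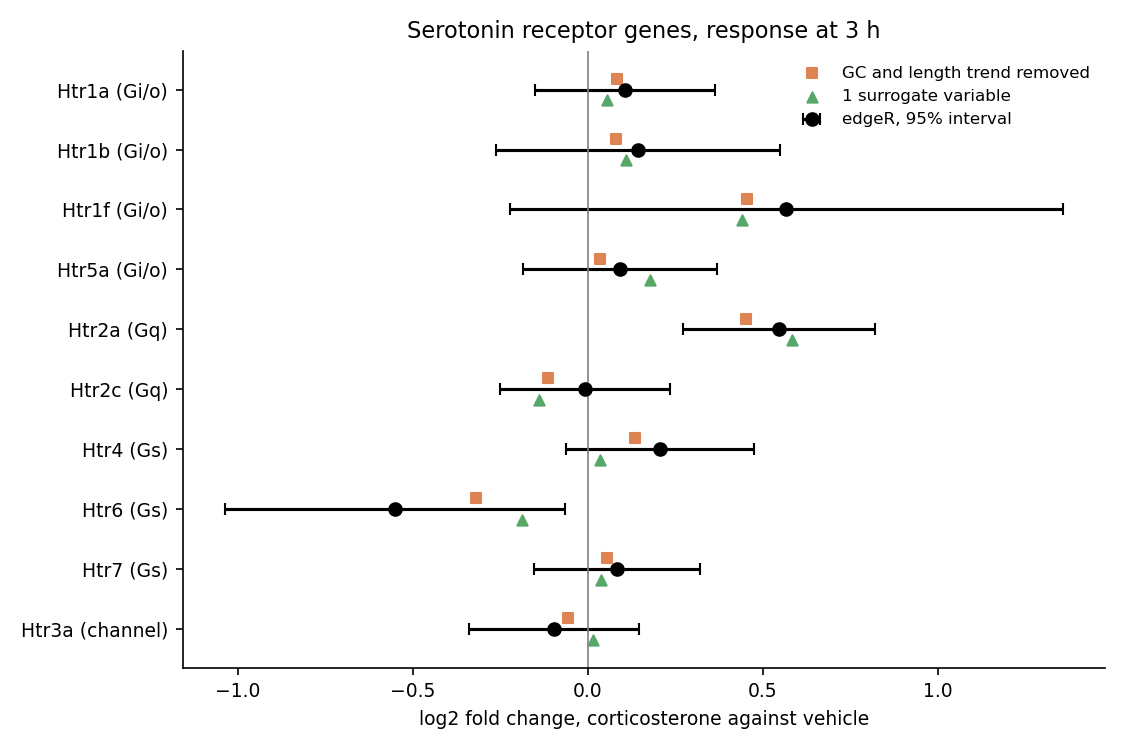
Log2 fold change of the 10 genes, corticosterone against vehicle (horizontal axis), with the 95% interval from edgeR as black circles and bars. Orange squares are the values with the GC and length trend of each library removed, and green triangles those with 1 surrogate variable. The interval leaves out 0 for *Htr2a* (0.27 to 0.82) and *Htr6* (-1.04 to -0.06), and *Htr6* moves towards 0 under both alternatives while *Htr2a* stays between 0.45 and 0.58.

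The spread between mice differed among the genes. The biological coefficient of variation estimated by edgeR was lowest for *Htr7* at 0.101 and was 0.106 to 0.124 for *Htr3a*, *Htr2a*, *Htr2c*, *Htr4*, *Htr1a* and *Htr5a*. It was 0.177 for *Htr1b*, 0.203 for *Htr6* and 0.283 for *Htr1f*, and the last lay at percentile 97.4 of all genes tested. These 3 genes had the lowest mean CPM of the 10 over all 8 libraries, though in vehicle libraries *Htr2a* (7.13) was below *Htr1b* (8.18). For *Htr1f* counting error alone was 24.4% at the mean depth of a vehicle library.

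The level per length, as CPM per kilobase of exon (RPKM), allows the genes to be compared with each other. In vehicle libraries *Htr1a* was highest at 7.96 ± 1.30 RPKM (SD, n = 4), followed by *Htr3a* at 6.89 ± 0.785 and *Htr2c* at 6.15 ± 0.847. The ranges of these neighbours overlapped, so their order was not resolved. A middle group came next, with *Htr7* at 3.29 ± 0.280, *Htr5a* at 3.09 ± 0.430, *Htr6* at 2.23 ± 0.709 and *Htr4* at 2.19 ± 0.314 RPKM. *Htr1b* at 1.73 ± 0.530 and *Htr2a* at 1.27 ± 0.137 RPKM followed, and *Htr1f* was lowest at 0.333 ± 0.191 RPKM.

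Over all 14 serotonin receptor genes of the mouse that were looked up, vehicle ranges of neighbours were separate at only 3 places in this order, between *Htr2c* and *Htr5b*, between *Htr2a* and *Htr1f*, and between *Htr1f* and *Htr1d*. *Htr5b*, a Gi/o-type gene that has lost its function in humans, was at 3.94 ± 0.433 RPKM and gave a log2 fold change of -0.12 (adjusted p = 0.790), which was -0.28 without corticosterone 5, -0.18 without vehicle 1, -0.053 without vehicle 3 or corticosterone 8 and -0.012 without corticosterone 6. *Htr1d*, *Htr2b* and *Htr3b* were near the limit of detection with 35, 7 and 3 reads over all 8 libraries, and were not tested. After corticosterone *Htr6* moved from place 7 to place 10 in the order, below *Htr2a* (1.52 ± 0.360 against 1.86 ± 0.212 RPKM), and the ranges of the 2 genes overlapped.

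**Figure D4:**
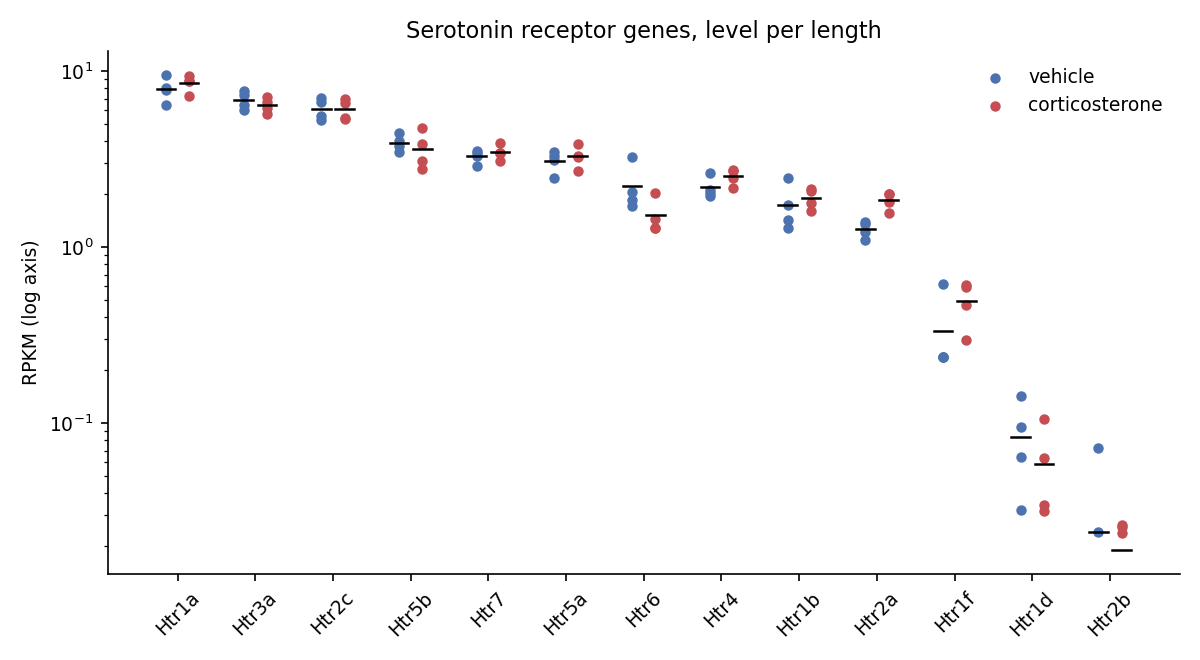
Level of the serotonin receptor genes in RPKM on a log axis, ordered by the vehicle mean. Points are libraries (blue vehicle, red corticosterone), black lines are means, libraries of *Htr2b* without reads are not drawn, and *Htr3b*, the lowest of the 14 genes with 3 reads in all, is left out. *Htr1a*, *Htr3a* and *Htr2c* lead with means of 6.15 to 7.96 after vehicle, and *Htr1f*, *Htr1d* and *Htr2b* lie far below the rest.

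The order at the top depended on the length used for *Htr2c*. Its 7 annotated transcripts cover 9328 bases of exon together, but the longest one has 4883 bases. With the latter, *Htr2c* came first at 11.7 RPKM in vehicle libraries, ahead of *Htr1a*. Its introns hold 8 annotated small RNA genes, none of which overlaps its exons.

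Summed by coupling over the 14 genes, Gi/o-coupled receptors made up 43.6% ± 2.26 of the receptor RNA per length in vehicle libraries and 44.9% ± 2.07 after corticosterone (SD, n = 4 each). Gq-coupled genes made up 19.0% ± 1.68 and 20.02% ± 1.77. Gs-coupled genes made up 19.7% ± 1.60 and 18.9% ± 0.664, and channel subunits 17.6% ± 2.01 and 16.2% ± 0.692. Each shift was smaller than the SD of the vehicle libraries. These shares depended on the length used. With the longest transcript the Gq share in vehicle libraries was 28.8% ± 2.48, above the Gs share of 17.9% ± 1.65, whereas with all exons the ranges of both overlapped. The summed level was 39.2 ± 3.32 RPKM after vehicle and 39.9 ± 3.12 RPKM after corticosterone.

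Within both groups, *Htr1a*, *Htr1b* and *Htr2a* were lower in each of the libraries with more thalamus marker reads than in each of those with fewer. For *Htr1a* the ordering rested on 39.37 CPM in corticosterone 6 against 39.44 CPM in corticosterone 5, a gap far inside its counting error of 3.72%. This split of the libraries was made after the data had been seen. The ordering was met by these 3 of the 10 genes and by 2.03% of all genes tested. For *Htr2a*, vehicle 1 and 2 had 6.82 and 6.19 CPM against 7.66 and 7.84 in vehicle 3 and 4, and corticosterone 6 and 7 had 10.1 and 8.83 CPM against 11.3 in both 5 and 8. Between treatments, the log2 fold change in the libraries with more and with fewer of these reads was 0.54 and 0.55 for *Htr2a*, 0.32 and 0.01 for *Htr1b* and 0.17 and 0.05 for *Htr1a* (2 against 2, values with no test). With the marker level as a covariate it was 0.55, 0.16 and 0.11 for the 3 genes. Whether thalamus tissue had a part in these levels was not tested.

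For the other genes of the serotonin system, counts at an unadjusted p under 0.05 stand beside the 9.03% of all genes tested. Of 18 genes for synthesis, storage, uptake and breakdown, 12 were tested and 1 had an unadjusted p under 0.05, *Slc29a4*, which encodes a low-affinity monoamine transporter of the plasma membrane (log2 fold change -0.43, SE 0.12, adjusted p = 0.386). It was at 31.1 to 41.6 CPM after vehicle and 22.3 to 32.3 CPM after corticosterone. *Qdpr*, which recycles the cofactor of tryptophan hydroxylase, was next (-0.20, adjusted p = 0.546). Markers of serotonin neuron cell bodies were low. There was 1 read of the transcription factor gene *Fev*, and there were 7 of the transporter gene *Slc6a4*, in all 8 libraries. The hydroxylase gene *Tph2* had 120 reads in all and the vesicular transporter gene *Slc18a2*, which other monoamine neurons share, had 172.

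Of 16 genes for receptor partners and RNA editing, 1 had an unadjusted p under 0.05. This was *Dlg4*, the scaffold gene of PSD-95 (log2 fold change -0.25, SE 0.08, adjusted p = 0.476), and *Ric3*, a chaperone gene of ligand-gated channels, followed (0.14, adjusted p = 0.573). Of 27 genes for G proteins, adenylyl cyclases, phospholipases C and potassium channels downstream of the receptors, none had an unadjusted p under 0.05. The smallest p values were those of *Gna11* (-0.19, adjusted p = 0.545) and *Gnai1* (0.16, adjusted p = 0.545). Of the 27 genes, 7 had a positive log2 fold change, beside 50.7% of all genes tested.

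Markers of cell types that carry these receptors gave the following counts at an unadjusted p under 0.05, beside 9.03% of all genes tested. There was no call at the adjusted threshold of edgeR and 1 by DESeq2, *Cx3cr1*. Of 5 dentate markers 1 was lower, *C1ql2* (-0.42, adjusted p = 0.282), with *Stxbp6* next (-0.05, adjusted p = 0.886). Of 5 CA1 markers 1 was lower, *Pou3f1* (-0.50, adjusted p = 0.499), with *Mpped1* next (-0.10, adjusted p = 0.719). Of 8 CA2 and CA3 markers *Amigo2* was higher (0.29, adjusted p = 0.499) and *Rgs14* lower (-0.32, adjusted p = 0.545). Of 6 ventral hippocampus markers 2 were higher, *Coch* (0.62, adjusted p = 0.512) and *Dcn* (0.54, adjusted p = 0.545), and their summed level was 113 to 204 CPM after vehicle and 170 to 274 CPM after corticosterone. Of 4 dorsal markers *Lct* was lower (-0.48, adjusted p = 0.502), with *Iyd* next (0.36, adjusted p = 0.567). Of 8 thalamus markers *Rorb* was lower (-0.45, adjusted p = 0.288), with *Lef1* next (-0.36, adjusted p = 0.567). Of 9 glial markers 4 were lower, among them the microglial genes *Cx3cr1* (-0.76, adjusted p = 0.186) and *P2ry12* (-0.47, adjusted p = 0.298), and the summed glial level was 3082 to 4844 CPM after vehicle and 2920 to 3533 CPM after corticosterone. The part of these markers in the values of *Htr2a* and *Htr6* was not tested.

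For each receptor gene, the tested gene with the most similar pattern over the 8 libraries was found by the smallest root mean square difference of standardized log2 CPM. For *Htr2a* this was *Spag17os*, at 0.263 SD units, and for *Htr6* it was *Col7a1*, at 0.198 SD units. *Pbld2* was nearest to *Htr1a* (0.287), *Cbln4* to *Htr1b* (0.260), *Cd99l2* to *Htr1f* (0.187) and *Rubcnl* to *Htr5a* (0.274). *Rbm4b* was nearest to *Htr2c* (0.320), *Tro* to *Htr3a* (0.239), *Chl1* to *Htr4* (0.161) and *Hdgf* to *Htr7* (0.178). *Htr4* and *Htr6* had many genes with a similar pattern, 670 and 532 within 0.5 SD units, and the other 8 genes had between 21 and 78. These likenesses were taken over all 8 libraries of both treatments and are given without a test.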

How the data were processed

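Total RNA was enriched for mRNA, made into stranded libraries and sequenced as paired reads. The authors used GSnap for alignment to mm10 and HTSeq-count for quantification, and the deposited values are raw read counts per gene. No column was left out. Symbols, positions and exon lengths came from GENCODE M21 (GRCm38), in which 50462 of 50686 identifiers were found. The 10 receptor genes and the gene lists were chosen with earlier results of these data known. Counts were fitted over all genes with edgeR 4.0.16 (TMM, filterByExpr, quasi-likelihood test, Benjamini-Hochberg adjustment) under R 4.3.3, with no covariate. Alternatives used DESeq2 1.42.0, limma 3.58.1 and sva 3.50.0. Log2 values had a prior count of 2. Counting shares cover sampling of reads only. Named genes were the receptors, the 2 genes of each list with the smallest p values, the defining or most abundant genes of marker lists, *Fkbp5*, and the gene nearest in pattern to each receptor. Some marker lists share genes. Scripts were tested on simulated data. Libraries of a group differed by more than counting noise (chi-square per degree of freedom 3.39 to 32.2). Promoter sequences are from RefSeq, GRCm38.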

Additional observations from a re-analysis of the deposited data

Results flagged for a closer look

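In vehicle libraries *Htr1f* was at 1.60 CPM in vehicle 4 and at 0.613 to 0.615 CPM in the other 3. The gap was 0.997 of the range of the group, above the 95% critical value of Dixon's test for 4 samples. This was the 1 case in 22 groups of 4 values examined (11 tested receptor genes in either treatment), and chance alone gives about 1 in 20.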

How the results depend on the processing

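Across 18 alternatives, 172 of 180 log2 fold changes of the 10 genes kept their sign, and *Htr1a*, *Htr1f*, *Htr2a*, *Htr4*, *Htr6* and *Htr7* kept it in every one. The alternatives refit the same libraries or parts of them. Leaving out libraries could not turn the sign of *Htr2a*, whose groups did not overlap. *Htr2c* was -0.079 to 0.058 with single libraries left out (positive without vehicle 2, vehicle 4, corticosterone 5 or corticosterone 7). It was -0.14 with 1 surrogate variable and -0.11 with the GC and length trend removed. It was 0.047 within the libraries with more thalamus marker reads, a split chosen after seeing the data. *Htr3a* turned to 0.014 and *Htr5b* to 0.11 with 1 surrogate variable, *Htr1b* to -0.036 and *Htr5a* to -0.086 without vehicle 1 and corticosterone 5, and *Htr5a* was -0.0032 (without vehicle 1) to 0.17 with single libraries left out. The number of the 10 genes at an adjusted p under 0.05 was 1 with DESeq2 and 0 to 2 with single libraries left out (2 without corticosterone 5, where 1651 of 16181 genes passed). At an unadjusted p under 0.05 the number was 1 with 1 surrogate variable (6.0% of all genes). It was also 1 with the GC and length trend removed (9.53% of all genes). With single libraries left out it was 1 to 5, beside 4.69% to 29.0% of all genes. It was 5 without vehicle 4 (15.3% of all genes) and 3 without corticosterone 5 (29.0%). Without overlap it was 0 with the trend removed (4.5% of all genes), 2 without vehicle 1 and corticosterone 5 (29.8% of all genes), and 1 to 3 with single libraries left out (3 without vehicle 4, 9.16% of all genes, and 2 without corticosterone 5, 24.3%). Over all genes, 63 passed the adjusted threshold with DESeq2, 79 without a filter, 0 with at least 10 reads in every library, 2 with 1 surrogate variable, 19 with the trend removed, 1103 without vehicle 1 and corticosterone 5, 2 with the thalamus marker level as a covariate chosen after seeing the data, and 0 to 1651 with single libraries left out. With the length of the longest transcript, *Htr2c* ranked 1, *Htr1a* 2, *Htr3a* 3, *Htr4* 7 and *Htr6* 8, and the vehicle shares were 37.9% for Gi/o, 28.8% for Gq, 17.9% for Gs and 15.3% for channel genes. The cause of these moves was not tested. Of the 10 genes *Htr1f* had the fewest reads, 12 to 31 per library, and so the largest counting error. No paired analysis was possible because the groups share no replicate number in the labels.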
